A study of Mus musculus with 12 samples.

Results

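The 7 genes described here are St6gal1, which encodes a sialyltransferase, and 6 genes of sialic acid-binding lectins, Siglec1, Cd22, Cd33, Siglece, Siglecf and Siglecg. They were taken by symbol, 7 of the 54446 gene identifiers in the count table, and all 7 passed the filter on low counts that left 13773 genes for testing. The set was proposed with earlier results of these libraries in view and so counts as selected on their measured counts in the 4 groups, all of which are among the values below. The values of these 7 genes are therefore given as a description, without p-values, and their place beside the threshold is read against the share of all genes past it.

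Siglecs are receptors with immunoglobulin-like domains that bind sialic acid, the sugar that caps many glycans at the cell surface. Most of them carry tyrosine motifs in their cytoplasmic tail which, once phosphorylated by Src-family kinases, recruit phosphatases and dampen activating signals; sialoadhesin, the product of Siglec1, lacks such motifs and serves in adhesion and in the capture of sialylated particles. The ligands are built inside the cell by sialyltransferases, of which St6gal1 adds sialic acid to the outer galactose of N-glycans, the linkage that CD22 recognises.

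The RNA came from bone marrow-derived macrophages of mice, cultured with recombinant M-CSF from femur and tibia marrow. All mice carried loxP-flanked Nlrc3 alleles. WT mice had no Cre and KO mice (NLRC3ΔMac) carried LysM-Cre, a recombinase driven by a promoter active in myeloid cells, so other cells of the culture keep the gene. Cells stayed in RPMI 1640 medium or received LPS for 12 h, which gave 4 groups of 3 libraries each; age and sex of the mice are not given in the labels.

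Library totals were 13082947 to 20960505 counts. A level below is in CPM, counts scaled to 1000000 per library, and 3 counts corresponded to 0.143 to 0.229 CPM. Folds also used TMM factors (0.702 to 1.46), which centre each comparison on the bulk of genes; without them the median log2 fold of all genes was -0.637 for LPS in WT, 0.776 for LPS in the libraries labelled KO, 0.570 between genotypes in LPS and -0.847 between genotypes in medium, and the share of higher among called genes went from 64.8% to 24.4%, 49.7% to 81.9%, 43.2% to 74.5% and 53.4% to 16.1% in that order. The KO labels did not match their content: Nlrc3 lay at 9.89 to 13.6 CPM in WT medium, 0.796 to 4.39 in WT LPS, 0.850 to 0.996 in labelled KO medium and 6.04 to 15.6 in labelled KO LPS, and the LPS-induced gene Nos2 lay at 1148 to 2717 CPM in those labelled KO medium against 0.689 to 5.43 CPM in those labelled KO LPS. An exchange of medium and LPS among the KO labels, which would turn the sign of every LPS effect in those libraries, cannot be settled from the labels. After such an exchange Nlrc3 would lie at 6.04 to 15.6 CPM in KO medium beside 9.89 to 13.6 in WT medium. In LPS it would lie at 0.850 to 0.996 CPM beside 0.796 to 4.39 in WT, so the genotypes would overlap in both treatments. Whether the genotype labels hold was not tested. Every direction that involves the KO is thus that of libraries labelled so, and the WT comparison was also fitted without them. WT medium 2 and the library labelled KO LPS 1 stood apart from the rest of their groups on the second principal component. They lay at -92.7 and -64.8 there, with 19.4% of the variance. On the first (56.8%), WT LPS 2 lay at 20.5, against 86.6 and 84.8 for WT LPS 1 and 3, and held the least Nos2 of its group (831 CPM). The 5 libraries with Xist were WT medium 1 and 3, WT LPS 2 and those labelled KO LPS 2 and 3. The other 7 carried Y-linked transcripts. Both libraries that stood apart on the second component were the only ones of their groups with Y-linked transcripts. A fit without them thus left only Xist libraries in WT medium and labelled KO LPS. Macrophage markers were abundant throughout, with a summed level of 7 genes between 8836 and 34939 CPM. Lyz2 gave the largest part, with group means from 5861 CPM in labelled KO medium to 27266 CPM in WT medium.

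Of the 7 genes, 5 lie on chromosome 7 (GRCm38, with GENCODE M21 gene bounds). Siglecf (chr7:43351341-43359531, plus strand), Siglecg (chr7:43408204-43418358, plus), Cd33 (chr7:43524216-43544428, minus) and Siglece (chr7:43651070-43660161, minus) form a cluster, and Cd22 (chr7:30865402-30880342, minus) lies apart from it. Siglec1 is at chr2:131069220-131086765 on the minus strand and St6gal1 at chr16:23224740-23360350 on the plus strand. The noncoding gene BC106179 overlaps the start of St6gal1 on the other strand, and the antisense gene Gm29439 lies within Cd22; the strand setting of the counts is unknown, so reads of these partners may be shared.

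Promoter sequences were read from RefSeq (GRCm38.p6) for 6 of the 7 genes, with 9 start sites; Siglec1 had no entry. The 250 bases before the start of Siglece, Siglecf and Cd33, neighbours that gave unlike patterns, and of the first start of St6gal1 are shown from 5′ to 3′ of the gene. Capitals mark GAGGAA, the core bound by the myeloid factor PU.1, on either strand (TTCCTC where it lies on the minus strand). The windows are chr7:43660162-43660411 (minus) for Siglece, chr7:43351091-43351340 (plus) for Siglecf, chr7:43533172-43533421 (minus) for Cd33 and chr16:23224490-23224739 (plus) for St6gal1.

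Siglece: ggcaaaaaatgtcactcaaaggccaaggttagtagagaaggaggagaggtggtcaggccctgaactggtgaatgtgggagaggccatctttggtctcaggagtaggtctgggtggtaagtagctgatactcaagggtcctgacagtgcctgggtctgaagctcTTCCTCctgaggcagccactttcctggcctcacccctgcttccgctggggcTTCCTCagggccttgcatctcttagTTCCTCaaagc
Siglecf: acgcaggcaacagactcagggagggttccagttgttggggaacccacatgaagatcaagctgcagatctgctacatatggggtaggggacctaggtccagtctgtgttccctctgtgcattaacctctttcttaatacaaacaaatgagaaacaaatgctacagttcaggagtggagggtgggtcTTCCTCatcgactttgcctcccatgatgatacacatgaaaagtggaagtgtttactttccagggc
Cd33: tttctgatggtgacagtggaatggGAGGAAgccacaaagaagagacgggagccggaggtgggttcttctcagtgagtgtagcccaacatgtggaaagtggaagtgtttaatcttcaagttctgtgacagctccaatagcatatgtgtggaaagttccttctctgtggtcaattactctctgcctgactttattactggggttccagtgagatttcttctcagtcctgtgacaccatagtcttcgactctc
St6gal1: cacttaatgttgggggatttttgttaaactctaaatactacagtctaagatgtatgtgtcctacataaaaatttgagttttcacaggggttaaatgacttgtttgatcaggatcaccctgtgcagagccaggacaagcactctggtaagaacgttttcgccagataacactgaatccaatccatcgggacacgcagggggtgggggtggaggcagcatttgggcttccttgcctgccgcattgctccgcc

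Siglece held 3 such matches, at 87 to 82, 36 to 31 and 11 to 6 bases before the start. Siglecf held 1 (65 to 60 bases before the start), Cd33 held 1 (226 to 221 bases before it) and the first of the Siglecg starts held 2. No match was found at the start of Cd22 or at any of the 3 starts of St6gal1. Over 32851 mouse promoters of 300 bases, 28.3% held at least 1 GAGGAA and 0.685% held 3 or more. Neither the core of the interferon-stimulated response element, GAAA and GAAA with 2 bases of any kind between (3.44% of promoters), nor TTCNNNGAA, the gamma-activated site (8.3%), was found at any of the 9 starts; both strands were searched, and GAGGAA can overlap either pattern by its last bases. A match or its absence describes these letters only.

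St6gal1 separated the groups most widely. It stood at 81.2, 18.2 and 111 CPM in the WT medium libraries, in order of number, and in WT LPS at 1.73, 1.91 and 0.851 CPM. The libraries labelled KO medium held 1.27, 1.20 and 1.08 CPM, and those labelled KO LPS 13.8, 99.2 and 111 CPM. No low library came near a high one, so that WT LPS shared its level with the libraries labelled KO medium, and WT medium with those labelled KO LPS. Within both high groups the library that stood apart (WT medium 2, labelled KO LPS 1) was the lowest, with 238 and 219 reads against 1584 to 2099 in the other 4. The 6 low libraries had 14 to 40 reads each, above the level of 3 counts.

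The group means of St6gal1 were 70.0 ± 47.3 CPM in WT medium, 1.49 ± 0.565 in WT LPS, 1.19 ± 0.0985 in labelled KO medium and 74.8 ± 53.1 in labelled KO LPS (SD, n = 3 each). The fitted log2 fold of LPS against medium was -4.88 ± 0.78 (SE) in WT, where 6.46% of all genes were called lower, and 5.21 ± 0.80 in the libraries labelled KO, where 15.1% were called higher. Between labels it was 5.13 ± 0.79 in LPS, with 10.4% of all genes called higher, and -4.96 ± 0.79 in medium, with 12.3% called lower. St6gal1 was past the threshold in these 4 contrasts and in every alternative run for them, with WT values between -5.54 and -4.00. Without the libraries labelled KO the WT value was -4.92, and without both libraries that stood apart it was -5.34. In bulk RNA, fewer cells that express a gene and less of its RNA per cell cannot be told apart.

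**Figure D1:**
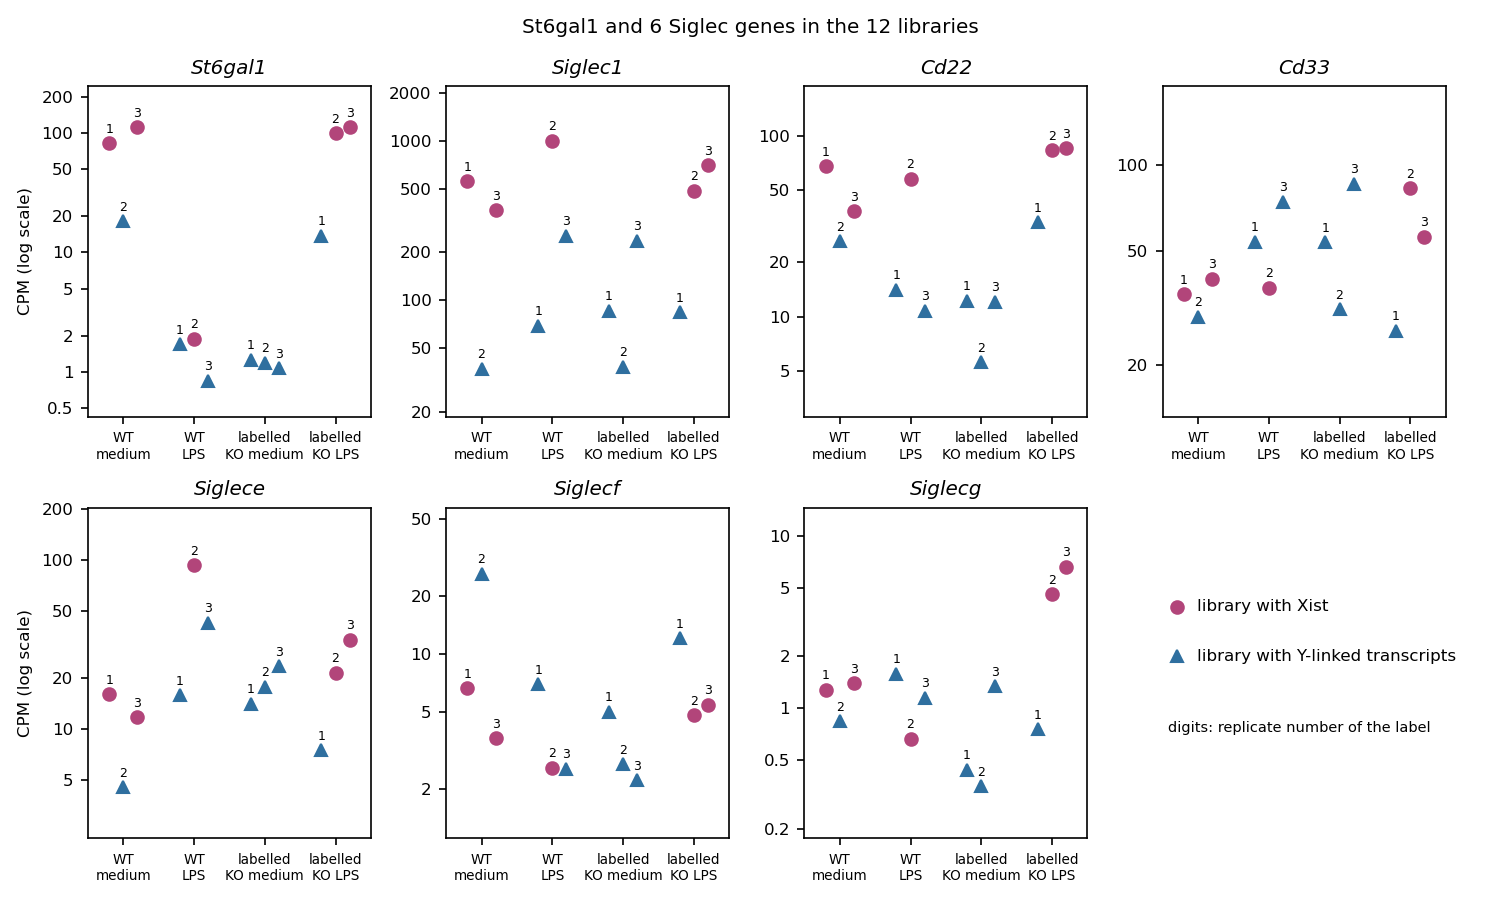
Level of each of the 7 genes in each library (CPM, log scale), by labelled group; circles are libraries with Xist, triangles libraries with Y-linked transcripts, and digits the replicate number. St6gal1 lies between 13.8 and 111 CPM in WT medium and labelled KO LPS and between 0.851 and 1.91 CPM in the other 6 libraries; Siglec1 is higher in each circle than in each triangle.

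Siglec1, which encodes the adhesion receptor sialoadhesin, did not follow the groups. Its levels were 562, 37.2 and 369 CPM in WT medium, 69.4, 1006 and 254 CPM in WT LPS, 86.0, 38.4 and 237 CPM in labelled KO medium and 84.6, 488 and 703 CPM in labelled KO LPS. All 4 groups overlapped, and WT LPS alone held both the highest library of all and one of the low ones. The highest was WT LPS 2, which lay far from the others of its group on the first principal component. The means were 323 ± 265, 443 ± 496, 120.4 ± 104 and 425 ± 314 CPM (SD, n = 3 each). Log2 folds were 0.99 ± 1.02 for LPS in WT, 1.12 ± 1.02 for LPS in the libraries labelled KO, -0.43 ± 1.01 between labels in LPS and -0.56 ± 1.01 in medium, and none of these was past the threshold. With 1 library left out, they ran from -0.22 (without WT LPS 2) to 1.69 (without WT medium 1), from 0.56 to 1.94, from -0.99 to 0.78 (without WT LPS 2) and from -1.46 to 0.14 (without WT medium 1).

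The description codes of the WT libraries share a number between WT medium 2 and WT LPS 1 and between WT medium 3 and WT LPS 2; the labels do not say what it stands for. Siglec1 was at 37.2 and 69.4 CPM in the first pair and at 369 and 1006 CPM in the second. With that number as a block, its WT fold was 1.65 ± 0.36 and past the threshold. WT medium 1 and WT LPS 3 share their number with no other library, so this fold rested on the pairs alone. Its spread rested on them too, so the SE cannot be set beside that of the fit over all 12 libraries. Both libraries of the first pair carried Y-linked transcripts and both of the second Xist.

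The libraries of Siglec1 divided by Xist instead. The 5 libraries with Xist held 369 to 1006 CPM (median 562) and the 7 with Y-linked transcripts 37.2 to 254 CPM (median 84.6), with no overlap. Of all genes tested, 11.2% were higher in every Xist library than in every other, and 2.08% were lower. With the Xist class as a covariate, a fit added after the data were seen, the log2 fold of LPS in WT was 2.06 and that between labels in medium was 1.87; the first was past the threshold and the second was not. The difference between the LPS effects of the labelled genotypes was then -3.25 and past the threshold, against 0.13 and not past it without the covariate. The classes hold unequal parts of the groups, since all libraries labelled KO medium carried Y-linked transcripts, and whether sex or another property of these libraries moved with Siglec1 was not tested. Cd22 was also higher in each Xist library (38.4 to 85.7 CPM) than in each of the others (5.60 to 33.2 CPM). Xist libraries overlapped the others for the other 5 genes.

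Siglece encodes an inhibitory receptor of neutrophils and macrophages. It was read at 16.1, 4.51 and 11.8 CPM in WT medium and at 15.9, 93.3 and 42.6 CPM in WT LPS. The libraries labelled KO medium gave 14.2, 17.9 and 23.7 CPM and those labelled KO LPS 7.51, 21.6 and 33.9 CPM. WT LPS 2 and 3 lay above all 3 WT medium libraries, while WT LPS 1 lay just below WT medium 1. Its means were 10.8 ± 5.87, 50.6 ± 39.3, 18.6 ± 4.79 and 21.0 ± 13.2 CPM (SD, n = 3 each).

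With LPS in WT the log2 fold of Siglece was 2.77 ± 0.62, past the threshold as were 11.9% of all genes in that direction. The value ran from 2.17 to 3.24 over 22 alternatives and was past the threshold in each; without the libraries labelled KO it was 2.74. In the libraries labelled KO the fold was -0.56 ± 0.59 and not past the threshold; scaled by library size alone it was 0.18. Between labels the folds were -1.69 ± 0.60 in LPS and 1.64 ± 0.60 in medium, neither past the threshold, though 5 and 7 of 21 alternatives called them.

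Cd33, a Siglec of myeloid cells, varied least among the 7 genes. The libraries of WT medium held 35.4, 29.5 and 40.1 CPM, those of WT LPS 54.1, 37.4 and 74.6 CPM, those labelled KO medium 53.8, 31.5 and 86.1 CPM and those labelled KO LPS 26.4, 83.0 and 56.2 CPM. All groups overlapped, WT LPS with WT medium only through library 2. The Cd33 means were 35 ± 5.33, 55.3 ± 18.7, 57.1 ± 27.5 and 55.2 ± 28.3 CPM (SD, n = 3 each). The log2 fold with LPS was 1.30 ± 0.45 in WT and -0.77 ± 0.44 in the libraries labelled KO, and between labels it was -0.56 ± 0.44 in LPS, none of them past the threshold. In medium the labelled KO minus WT fold was 1.52 ± 0.45 and past the threshold, as were 14% of all genes in that direction; scaled by library size alone it was 0.71 and with the Xist class as a covariate 1.56, neither of them called. That call also ended without WT medium 1 (1.50), WT medium 3 (1.53), the library labelled KO medium 1 (1.45) or that labelled KO medium 3 (1.12).

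Cd22 encodes an inhibitory co-receptor of the B cell receptor. Its levels were 68.0, 26.1 and 38.4 CPM in WT medium, 14.1, 58.0 and 10.8 CPM in WT LPS, 12.3, 5.60 and 12.1 CPM in the libraries labelled KO medium and 33.2, 83.3 and 85.7 CPM in those labelled KO LPS. The libraries labelled KO medium lay below all those labelled KO LPS and all of WT medium; WT LPS spanned both ranges because of WT LPS 2. Means were 44.2 ± 21.5, 27.6 ± 26.3, 10.0 ± 3.82 and 67.4 ± 29.6 CPM (SD, n = 3 each). With LPS the log2 fold was -0.17 ± 0.56 in WT, not past the threshold (-1.08 without WT LPS 2 and 0.24 without WT medium 1), and 2.01 ± 0.58 in the libraries labelled KO, past it. The latter call ended without any 1 of 5 libraries, with folds of 2.22, 1.75 and 2.09 without the libraries labelled KO medium 1, 2 or 3 and of 1.84 and 1.81 without those labelled KO LPS 2 or 3; with the Xist class as a covariate it ended too (1.04). Between labels the folds of 0.88 ± 0.56 in LPS and -1.30 ± 0.57 in medium were not past the threshold.

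Siglecf, a receptor known from eosinophils and alveolar macrophages, was low and uneven. It stood at 6.66, 26.0 and 3.66 CPM in WT medium, 6.97, 2.58 and 2.55 CPM in WT LPS, 5.03, 2.69 and 2.22 CPM in the libraries labelled KO medium and 12.1, 4.80 and 5.46 CPM in those labelled KO LPS. Its 2 highest libraries were the 2 that stood apart on the second principal component. The log2 folds were -1.07 ± 0.78 with LPS in WT, 0.40 ± 0.78 with LPS in the libraries labelled KO, 0.32 ± 0.78 between labels in LPS and -1.15 ± 0.79 in medium, none past the threshold. Without WT medium 2 the WT value was 0.32, and without both libraries that stood apart it was again 0.32. Summed levels of 7 eosinophil markers did not mark those libraries (16.2 CPM in WT medium 2 and 15.8 CPM in the library labelled KO LPS 1, against 6.64 to 87.0 CPM elsewhere). Summed levels of 6 osteoclast markers were the highest of their group in both (660 CPM in WT medium 2 and 412 CPM in the library labelled KO LPS 1). WT LPS 1 was also the highest of its group in Siglecf (6.97 CPM) and in these markers (652 CPM). The libraries labelled KO medium 1, 2 and 3 held 505, 543 and 174 CPM, with Siglecf at 5.03, 2.69 and 2.22 CPM. Across groups, marker sums of 505 to 660 CPM went with Siglecf levels of 2.69 to 26.0 CPM. The part of such cells in the Siglecf level was not tested.

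Siglecg, an inhibitory Siglec of B cells and some dendritic cells, had the lowest level. It was found at 1.28, 0.841 and 1.40 CPM in WT medium, 1.59, 0.668 and 1.16 CPM in WT LPS, 0.443, 0.354 and 1.35 CPM in the libraries labelled KO medium and 0.757, 4.58 and 6.63 CPM in those labelled KO LPS. The libraries labelled KO LPS 2 and 3 stood clear of the other 10, with 84 and 125 reads against 5 to 25 elsewhere. The log2 folds were 0.61 ± 0.73 with LPS in WT (-0.06 by library size alone), 1.76 ± 0.74 with LPS in the libraries labelled KO, 1.25 ± 0.71 between labels in LPS and 0.09 ± 0.74 in medium, none past the threshold. Without both libraries that stood apart, the folds of 2.23 (LPS in the libraries labelled KO) and 1.72 (between labels in LPS) were past it. In that fit labelled KO LPS held Xist libraries only and labelled KO medium libraries with Y-linked transcripts only.

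Markers of some other marrow cells, though not of all, were high in the same 2 libraries. The summed level of 10 B cell markers reached 321 and 424 CPM there (labelled KO LPS 2 and 3), 57.6 CPM in that labelled KO LPS 1, and 28.7 to 116, 33.5 to 52.8 and 14.8 to 47.1 CPM in WT medium, WT LPS and labelled KO medium. Ighm, the immunoglobulin heavy chain gene, made up most of it (331 CPM at most in the libraries labelled KO LPS). The pre-B cell gene Igll1 was at 0 in all libraries of WT medium and labelled KO medium. In the other groups it reached at most 0.106 CPM, under the level of 3 counts. Summed markers of neutrophils (5663 and 6898 CPM against 829 to 4376 CPM elsewhere), eosinophils (86.2 and 87.0 against 6.64 to 42.1 CPM) and plasmacytoid dendritic cells (26.4 and 28.0 against 2.98 to 5.89 CPM) were highest in these 2 libraries too. Single markers differed: Ccr3 peaked in WT medium (26.3 CPM), and S100a8 (1324 CPM) and Camp (110 CPM) in WT LPS. Mast cell and basophil markers also summed highest in these 2 libraries (50.5 and 112.9 against 4.98 to 17.3 CPM). T and NK cell markers peaked in that labelled KO LPS 3 (12.9 CPM), with 7.42 CPM in that labelled KO LPS 2 and up to 7.89 CPM elsewhere. The stromal, osteoclast and megakaryocyte lists did not follow. Stromal markers summed to 29.2 and 48.8 CPM in these 2 libraries (up to 274 elsewhere) and osteoclast markers to 87.8 and 105 CPM (up to 660). Megakaryocyte markers were highest in that labelled KO LPS 1 (784 CPM). The part of such cells in the Cd22 and Siglecg levels was not tested.

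**Figure D2:**
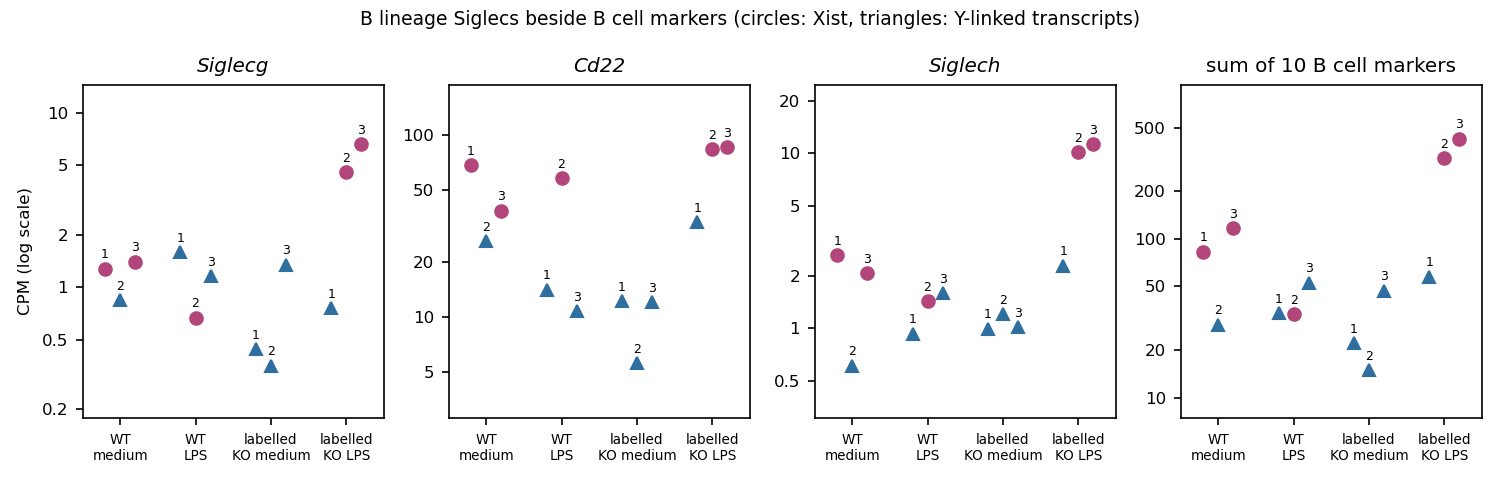
Levels of Siglecg, Cd22 and Siglech and the summed level of 10 B cell markers in each library (CPM, log scale), by labelled group; circles are libraries with Xist and triangles libraries with Y-linked transcripts. The libraries labelled KO LPS 2 and 3 are the highest in all 4 panels, while Cd22 is also at 58.0 CPM in WT LPS 2, where the marker sum is 33.5 CPM.

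Of the other Siglec genes, Siglech, a marker of plasmacytoid dendritic cells, showed the same 2 high libraries and is named after its values were seen. It lay at 2.27, 10.2 and 11.2 CPM in labelled KO LPS and at 0.611 to 2.61 CPM in all others. It was higher with LPS in the libraries labelled KO (log2 fold 2.12 ± 0.60, edgeR quasi-likelihood test, Benjamini-Hochberg adjusted p = 0.019) and not called in WT (0.20 ± 0.58, adjusted p = 0.85, same edgeR test). Mag, the myelin-associated glycoprotein, lay at 2.90 to 9.45 CPM and was not called with LPS in WT (0.88 ± 0.46, edgeR, Benjamini-Hochberg adjusted p = 0.21). Siglec15, a receptor known from osteoclasts, did not pass the filter and averaged at most 0.158 CPM in a group.

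Across the 7 genes, 1 was called higher (Siglece) and 1 lower (St6gal1) with LPS in WT, beside 11.9% and 6.46% of all genes. With LPS in the libraries labelled KO, 2 were called (St6gal1 and Cd22), both higher, beside 15.1% of all genes higher and 15.3% lower. Between labels, 1 was called in LPS (St6gal1, higher), beside 10.4% of all genes higher and 13.7% lower. In medium 1 was called higher (Cd33) and 1 lower (St6gal1), beside 14% and 12.3%. The median log2 folds of the 7 were 0.61, 1.12, 0.32 and -0.56 in that order, beside -0.06, 0.04, 0.06 and -0.02 over all genes tested. By CPM ranges, the groups did not overlap for St6gal1 in each of the 4 contrasts and for Cd22 in 2 (LPS in the libraries labelled KO, and lower in those labelled KO medium than in WT medium). Beside them, 32.5% of all genes lay wholly lower with LPS in WT (9.87% higher), 46.1% higher with LPS in the libraries labelled KO (10.9% lower), 34.8% higher between labels in LPS (10.9% lower) and 44.5% lower between labels in medium (10.2% higher).

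**Figure D3:**
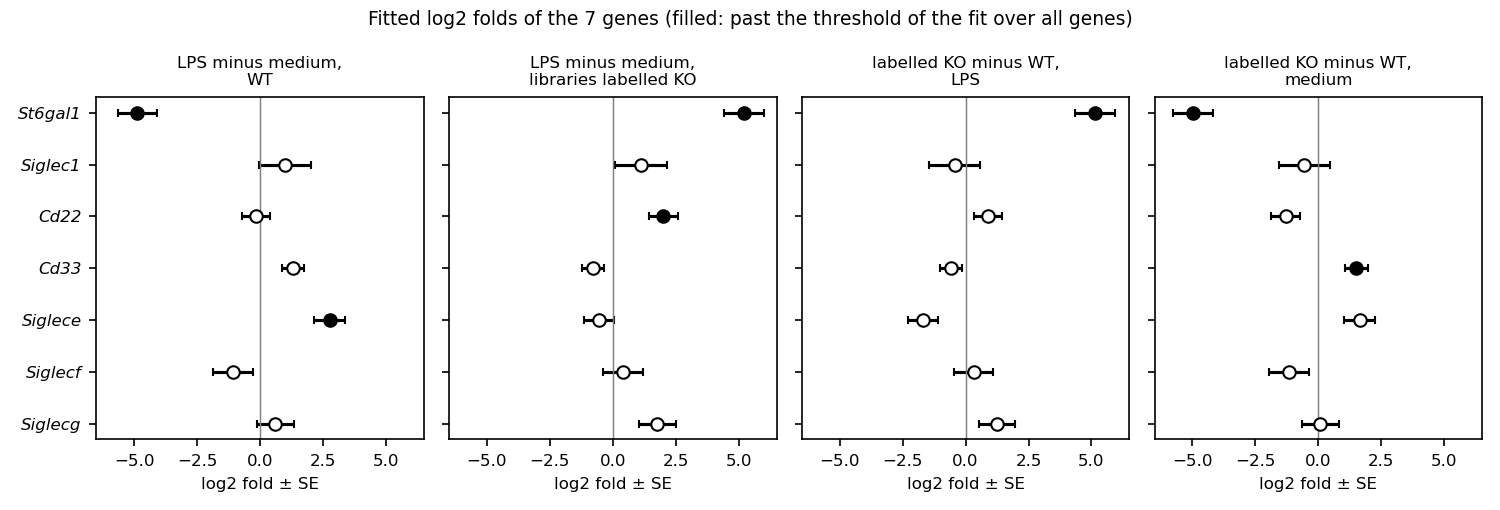
Fitted log2 folds of the 7 genes with their SE in the 4 contrasts, n = 3 libraries a group; filled points are past an adjusted p of 0.05 over all genes tested. St6gal1 is filled in all 4 panels, at -4.88, 5.21, 5.13 and -4.96, and Siglece only in WT, at 2.77.

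The difference between the LPS effects of the labelled genotypes was fitted as an interaction, for which 41.1% of all genes were called in either direction. For St6gal1 it was 10.09 ± 1.12, for Cd22 2.18 ± 0.80, for Siglece -3.33 ± 0.85 and for Cd33 -2.08 ± 0.63 (log2 ± SE, labelled KO minus WT), all 4 past the threshold. The St6gal1 value was called in all 20 alternatives and that of Siglece in 19, the exception being library size alone (-2.04). Cd33 was called in 17 of 20, failing by library size alone (-0.71), without WT LPS 3 (-1.72) and with the Xist class as a covariate (-2.16). Cd22 was called in 9 of 20 and is thus the least steady of these calls, with values from 1.03 to 3.43. The interaction values of Siglec1, Siglecf and Siglecg were 0.13, 1.47 and 1.16 and were not called. Each pair of LPS and label contrasts shares its libraries, so the 4 columns of folds are not independent measurements.

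Levels of different genes were compared in FPKM, the deposited values per kilobase of gene. Siglec1 had the highest mean in each group (45.2 ± 37.1 FPKM in WT medium, 62.0 ± 69.4 in WT LPS, 16.9 ± 14.5 in labelled KO medium and 59.5 ± 44.0 in labelled KO LPS, SD, n = 3 each), and Siglecg the lowest (0.244 ± 0.0614, 0.237 ± 0.0962, 0.149 ± 0.114 and 0.830 ± 0.620 FPKM). In WT medium the order between them was St6gal1 (14.2 FPKM), Cd22 (8.76), Siglece (5.84), Cd33 (4.50) and Siglecf (4.34), and each neighbour in that order overlapped the next except Siglecf and Siglecg. In WT LPS it was Siglece (27.3 FPKM), Cd33 (7.12), Cd22 (5.48), Siglecf (1.45) and St6gal1 (0.304), where only Siglecf and St6gal1 did not overlap. The libraries labelled KO medium had the WT LPS order, with gaps after Cd33 (7.35 FPKM against 1.98 for Cd22) and after Siglecf (1.19 against 0.241 for St6gal1). Those labelled KO LPS had the WT medium order, with a gap only before Siglecg. St6gal1 was thus in the second place in WT medium and labelled KO LPS and in the sixth in the other groups.

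The genes most like each member over the 12 libraries, by Pearson's r of log2 TMM-scaled CPM among 9051 genes with a mean of at least 5 CPM, are given as a description; libraries share group, depth and cell mixture, and 12 points give many high values. For St6gal1 they were Plxnd1, a semaphorin receptor (0.9895), Slc46a3 (0.9887) and Cd300a, an inhibitory receptor (0.9866). Plxnd1 ran from 123 to 475 CPM in WT medium and labelled KO LPS and from 25.7 to 49.8 CPM in the other 6 libraries, and Cd300a from 162 to 619 CPM against 27.7 to 48.8 CPM. For Siglec1 they were Cmip (0.9896), Sh3pxd2b (0.9782) and Tlr9, a DNA-sensing Toll-like receptor (0.9719). Tlr9 lay at 59.0 to 134 CPM in the 5 Xist libraries and at 1.30 to 35.4 CPM in the other 7.

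For the remaining Siglecs the nearest genes were Fbrsl1 (0.9541) for Siglece, Slc36a1 (0.9599) for Cd22, Osm, the cytokine oncostatin M (0.9487), for Cd33, Mgst2 (0.9393) for Siglecf and Ssbp2 (0.9359) for Siglecg. Osm stood at 9.55 to 13.9 CPM in WT medium and at 12.4 to 29.6 CPM in WT LPS. Mgst2, a glutathione transferase gene, was highest in WT medium 2 (22.1 CPM) and the library labelled KO LPS 1 (9.66 CPM), as Siglecf was. Among the 7 genes themselves r ran from -0.75 (Siglec1 and Siglecf) to 0.708 (St6gal1 and Cd22).

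The wider pathway was taken as 7 lists with 64 genes, of which 52 were tested: other sialyltransferases, sialic acid supply, sialidases and proteases that act on St6gal1, enzymes that build the acceptor glycans, signalling partners of Siglecs, protein carriers of their ligands, and other Siglecs. With LPS in WT, 8 of the 52 were called higher and 3 lower (11.9% and 6.46% of all genes), with a median log2 fold of 0.21. With LPS in the libraries labelled KO, 12 were higher and 9 lower (15.1% and 15.3% of all genes; median 0.10). Between labels, 8 were higher and 5 lower in LPS (10.4% and 13.7% of all genes; median 0.27), and 9 higher and 4 lower in medium (14% and 12.3% of all genes; median 0.21).

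Among 12 other sialyltransferases tested of 19, 2 were higher and 2 lower with LPS in WT, beside 11.9% and 6.46% of all genes. St3gal4, which caps galactose by another linkage than St6gal1, rose from 36.8, 20.9 and 36.4 to 50.2, 39.1 and 80.9 CPM (log2 fold 1.51 ± 0.38, edgeR quasi-likelihood test, Benjamini-Hochberg adjusted p = 0.017), and all LPS libraries lay above all medium libraries, as for 9.87% of all genes. Its relative St3gal6 rose by 1.53 ± 0.42 (edgeR, Benjamini-Hochberg adjusted p = 0.026), from 1.94 to 3.84 CPM on average. St6galnac6, which adds sialic acid to ganglioside glycans, fell by 1.42 ± 0.37 (edgeR, Benjamini-Hochberg adjusted p = 0.020), from 56.6, 35.1 and 55.8 to 17.2, 11.0 and 6.99 CPM, and St3gal2 fell by 1.26 ± 0.30 (edgeR, Benjamini-Hochberg adjusted p = 0.013), from 28.6 to 7.89 CPM on average. Beside the low St6gal1 of WT LPS, other members of its enzyme class thus changed in both directions.

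These sialyltransferase calls were sensitive to single libraries (edgeR, Benjamini-Hochberg adjusted p in each case). That of St3gal6 ended without WT medium 2 (edgeR adjusted p = 0.0594), WT medium 3 (0.110), WT LPS 2 (0.0662) or WT LPS 3 (0.0782), and that of St3gal4 without WT medium 3 (0.0557) or WT LPS 3 (0.0896). The call of St6galnac6 ended without WT medium 1 (0.0681), WT medium 3 (0.0565), WT LPS 2 (0.0552) or WT LPS 3 (0.0665), and that of St3gal2 without WT medium 1 (0.0678) or WT LPS 3 (0.0546). Fitted without the libraries labelled KO, St3gal4 and St3gal2 were still called and St3gal6 (0.0652) and St6galnac6 (0.0521) were not; scaled by library size alone, St3gal6 (0.121) and St3gal4 (0.103) were not. With the WT code number as a block, none of the 4 was called (St3gal6 0.0802, St3gal4 0.0833, St6galnac6 0.0838 and St3gal2 0.102). In the libraries labelled KO, St6galnac6 and St3gal2 were higher with LPS (1.55 ± 0.37 and 1.21 ± 0.30; edgeR, Benjamini-Hochberg adjusted p = 0.0092 and 0.011) and St3gal4 lower (-1.14 ± 0.38, adjusted p = 0.040), the last no longer so in 7 of the 12 fits that left out 1 library.

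Of 7 tested genes that supply sialic acid, 1 was called with LPS in WT, lower, beside 6.46% of all genes (median log2 fold of the 7 -0.68). In the libraries labelled KO 2 were called, both higher, beside 15.1% of all genes (median 0.87). Gne, the enzyme that starts sialic acid synthesis, went from 14.3, 10.9 and 12.9 CPM in WT medium to 3.19, 4.91 and 2.13 CPM in WT LPS, with no overlap, as for 32.5% of all genes in that direction. Its fold was -1.33 ± 0.38 on the log2 scale (edgeR, Benjamini-Hochberg adjusted p = 0.031). Gne was at 4.32, 2.05 and 2.70 CPM in labelled KO medium and at 10.6, 20.9 and 22.5 CPM in labelled KO LPS (1.81 ± 0.39, edgeR, adjusted p = 0.0049). The WT call of Gne ended without WT medium 1 (edgeR adjusted p = 0.0950), WT medium 3 (0.0645), WT LPS 1 (0.0649) or WT LPS 3 (0.115), and with the WT code number as a block (0.113). Cmas, which activates sialic acid for transfer, was called in the libraries labelled KO (0.99 ± 0.30, edgeR adjusted p = 0.026) and not in WT (-0.63 ± 0.30, adjusted p = 0.16).

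Sialidases, which remove sialic acid, and the proteases that release St6gal1 gave 0 calls among 5 tested genes in WT by edgeR, 0 at an unadjusted p under 0.05 and 0 by DESeq2. Of all genes, edgeR called 11.9% higher and 6.46% lower there. Ctsa, cathepsin A, which protects the lysosomal sialidase, was the most abundant and gave -0.21 ± 0.36 on the log2 scale (edgeR, Benjamini-Hochberg adjusted p = 0.73). By CPM it lay at 999 to 1293 in WT medium and 520 to 853 in WT LPS, with no overlap, as for 32.5% of all genes in that direction. Scaled by library size alone it was called lower (-0.82, edgeR adjusted p = 0.0465). Bace1, a protease that cleaves St6gal1, was called only with LPS in the libraries labelled KO, at 1.80 ± 0.55 (edgeR, adjusted p = 0.028).

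Among 11 tested enzymes of the acceptor glycans, 2 were called with LPS in WT, both higher, beside 11.9% of all genes in that direction. Mgat4a, which adds a branch to N-glycans, rose by 1.77 ± 0.33 (edgeR, Benjamini-Hochberg adjusted p = 0.0033), from 41.7, 22.4 and 43.8 to 60.8, 67.7 and 107 CPM. B4galt5, a galactosyltransferase of glycolipid synthesis, rose by 1.52 ± 0.28 (edgeR, adjusted p = 0.0034), from 172, 179 and 150.3 to 318, 311 and 330.3 CPM. By DESeq2, 3 of the 11 were called lower, and by edgeR 2 were lower at an unadjusted p under 0.05. Mgat4a and B4galt5 were both lower with LPS in the libraries labelled KO (-2.14 ± 0.33 and -1.59 ± 0.28, edgeR adjusted p = 0.00084 and 0.0019), and their groups did not overlap in either genotype. Of all genes, 9.87% lay wholly higher with LPS in WT and 10.9% wholly lower in the libraries labelled KO.

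Of 10 signalling partners of the Siglecs, 4 were called with LPS in WT, all higher, beside 11.9% of all genes in that direction. Lyn, the kinase best known for phosphorylating the CD22 tail, rose from 325, 217 and 322 to 605, 792 and 899 CPM (2.02 ± 0.27, edgeR, adjusted p = 0.00052). Fgr, a Src-family kinase like Lyn, rose by 1.42 ± 0.28 (edgeR, adjusted p = 0.0046). Ptpn6, the phosphatase SHP-1 that inhibitory Siglecs recruit, was called at 0.96 ± 0.30 (edgeR, adjusted p = 0.042), but its groups overlapped and the call ended in the fit without the libraries labelled KO (0.09997) and without any single WT library (0.0509 to 0.132), any labelled KO medium library or that labelled KO LPS 2 (0.0596 to 0.0720), as well as by library size alone (0.33, 0.438) and with the WT code number as a block (0.0874). In the libraries labelled KO these 3 were called lower with LPS, Lyn at -1.97 ± 0.27 (edgeR, adjusted p = 0.00045). The calls of Fgr (-0.91 ± 0.27, edgeR adjusted p = 0.026) and Ptpn6 (-0.87 ± 0.30, adjusted p = 0.044) there ended in 4 and 8 of the 12 fits that left out 1 library, with adjusted p up to 0.106 and 0.103. Inpp5d, the inositol phosphatase SHIP1, was higher (1.65 ± 0.56, edgeR adjusted p = 0.042).

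Carriers of Siglec ligands gave 0 calls of 5 in WT by edgeR, 0 at an unadjusted p under 0.05 and 0 by DESeq2. The edgeR shares over all genes were 11.9% higher and 6.46% lower. Cd52, a small sialylated surface protein, had the highest level and gave 0.66 ± 0.60 on the log2 scale (edgeR, Benjamini-Hochberg adjusted p = 0.50); without WT medium 2 the value was 1.71 and was called (edgeR adjusted p = 0.0358). Ptprc, the phosphatase CD45 and a ligand carrier for CD22, was called lower with LPS in the libraries labelled KO (-1.53 ± 0.38, edgeR, adjusted p = 0.011). Ptprc, Inpp5d, Bace1 and Cmas are named after their values were seen, and alternative settings were not run for them or for Siglech.

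**Figure D4:**
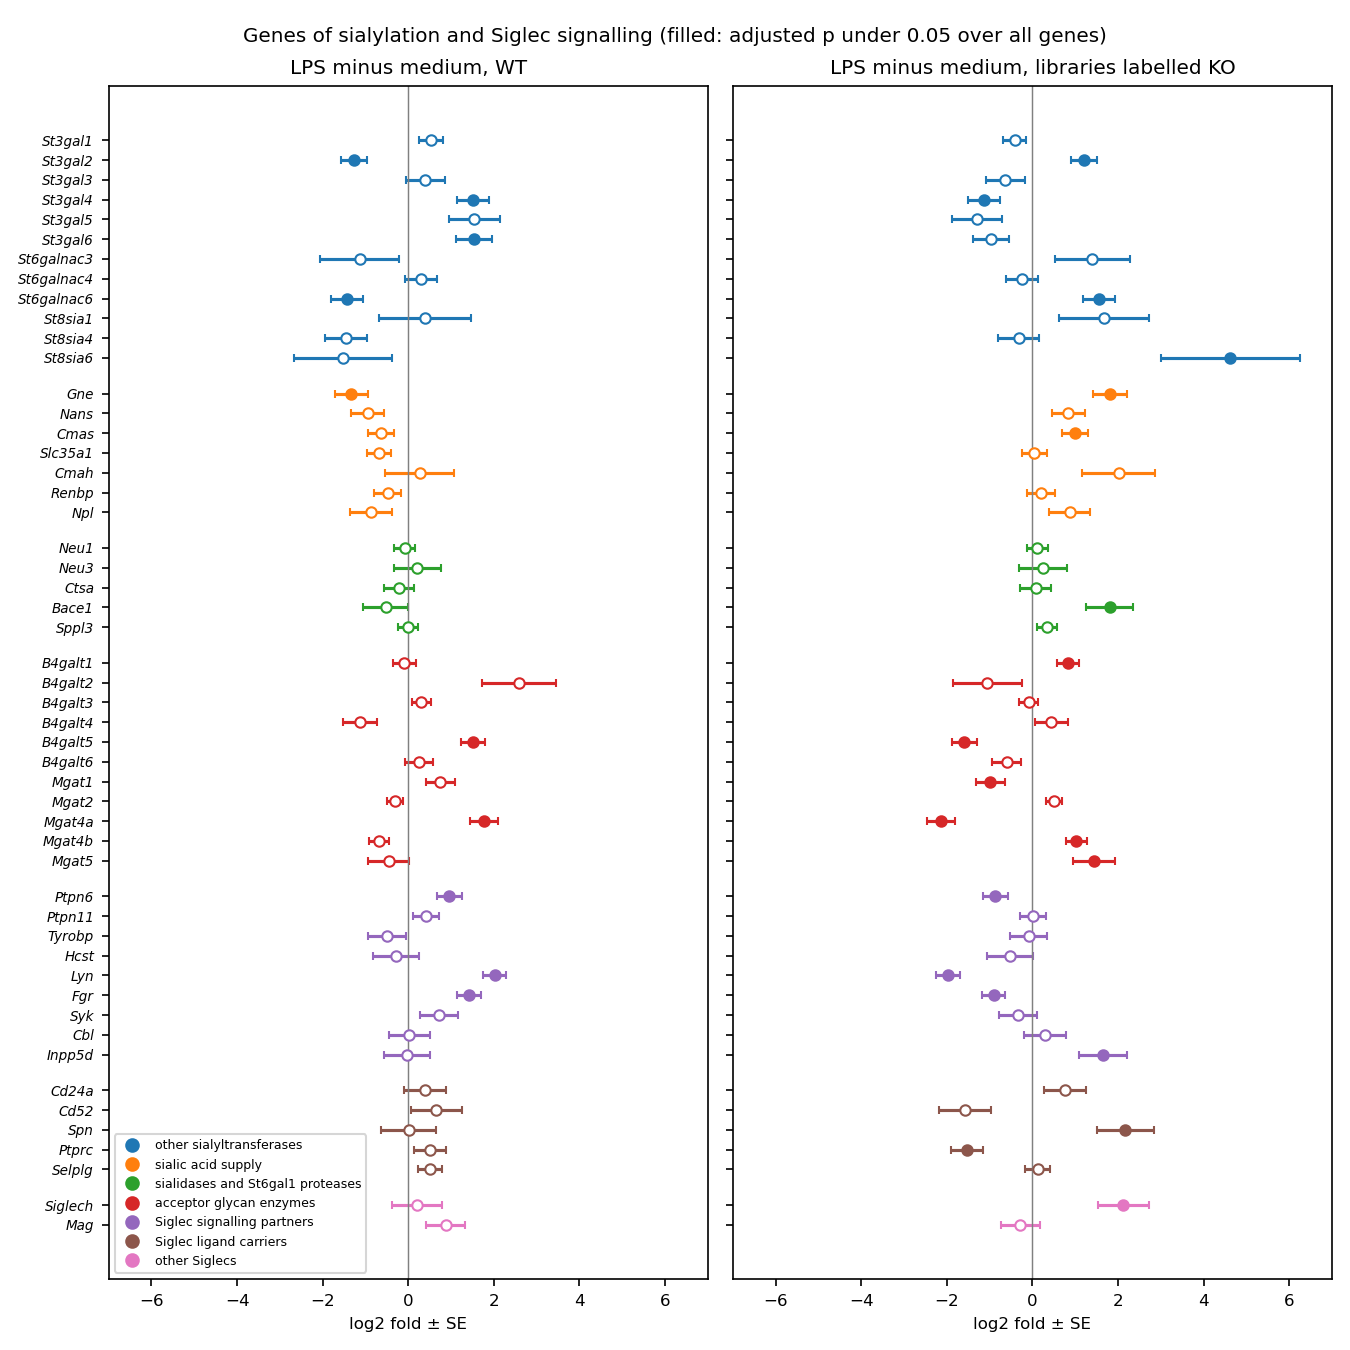
Log2 folds of LPS against medium with their SE for 51 of the 52 tested genes of sialylation and Siglec signalling, in WT and in the libraries labelled KO, n = 3 libraries a group and coloured by list; filled points have an adjusted p under 0.05 over all genes tested. Lyn, Fgr and Ptpn6 are filled to the right of 0 in WT and to the left in the libraries labelled KO.

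Reporters of the LPS and interferon responses moved as Lyn did and St6gal1 in the opposite sense. All 8 interferon reporters were called higher with LPS in WT (median log2 fold 4.87) and all 8 lower in the libraries labelled KO (-5.41), beside 11.9% and 15.3% of all genes. Cxcl10, an interferon-induced chemokine, changed by 7.32 ± 0.68 in WT and -8.45 ± 0.71 in the libraries labelled KO (edgeR, Benjamini-Hochberg adjusted p = 6.1e-05 and 2.3e-05). Of 4 LPS reporters, Nos2 changed by 8.98 ± 0.93 and Il6 by 7.23 ± 1.15 in WT (edgeR, adjusted p = 0.00012 and 0.0014). Siglec1, often used as an interferon-induced marker, was not called in either contrast, but was called higher in WT with the code number as a block (1.65) or the Xist class as a covariate (2.06). The block fit rested on the WT pairs that share a number, and those pairs differ in Xist class, so these fits are not separate measurements.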

How the data were processed

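The deposited count table holds whole-number, unnormalized reads for each gene as the authors counted them, and the second deposited table holds FPKM that the authors computed, which equal those counts scaled by library total and gene length (checked to within 0.00183% over 7261 genes). The build was mm10, per the submitters' processing notes. For aligner, counter, strand and annotation, nothing was given in the sources used here. The labels name both a TruSeq and a stranded KAPA kit.

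The 12 libraries were grouped by their labels. The model was edgeR 4.0.16 in R 4.3.3 (TMM, filterByExpr, glmQLFit and glmQLFTest, 1 mean per group over all libraries), with Benjamini-Hochberg adjustment over 13773 genes and a threshold of 0.05. SEs were derived from the F statistic. The contrasts were LPS against medium in each labelled genotype, the labels against each other in each treatment, and the difference of the LPS effects. The edgeR step was tested on simulated data. Alternatives were RLE factors, library size alone, 2 other filters, DESeq2 1.42.0, only the groups compared, blocks on the replicate number and on a number in the description code, and each library left out; a fit with the Xist class and one without both libraries that stood apart were added after the data were seen.

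The members and lists were chosen with earlier results of these data known. Named were every member and, from each other list, up to 4 genes called with LPS in WT with at least 1 CPM and the largest fold or, where none was called, the 1 of highest level. Symbols are those of the table and positions those of GENCODE M21; 1 sialyltransferase symbol had 2 identifiers, neither tested. Nothing in the labels ties replicates to separate animals. WT medium, WT LPS and labelled KO LPS each held libraries with Xist and libraries with Y-linked transcripts, which cannot all come from the same animal. Libraries of the same class within a group may be technical repeats, so p-values cover no more than how these samples vary. Libraries of a group differed beyond sampling noise (chi-square at least 24.3 times its degrees of freedom). Levels of 3 counts cover counting error only. Protein sequences were not analysed here, and single values of 1 gene that the naming rule picks are not reported here.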

Additional observations from a re-analysis of the deposited data

Results flagged for a closer look

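The LPS effect differed between the labelled genotypes for 22 of the named genes by the edgeR test of the difference itself. Values are log2 differences, labelled KO minus WT. Beside the levels of Nlrc3 and Nos2, all 8 interferon and all 4 LPS reporters were called higher with LPS in WT and lower in the libraries labelled KO. Whether the labels of the KO libraries match their content was not tested further. For the 4 members they are a description: 10.09 for St6gal1, 2.18 for Cd22, -3.33 for Siglece and -2.08 for Cd33. Of the sialyltransferases, St6galnac6 gave 2.98 and St3gal2 2.47, while St3gal4 gave -2.65 and St3gal6 -2.49; Gne, which starts sialic acid synthesis, gave 3.14. The glycan enzymes Mgat4a and B4galt5 gave -3.92 and -3.11. The kinases Lyn and Fgr gave -3.99 and -2.33, and the phosphatase gene Ptpn6 -1.83. The interferon reporters Cxcl10, Rsad2, Mx1 and Ifit1 gave -15.77, -12.81, -10.93 and -10.69, and the LPS reporters Nos2, Il6, Acod1 and Il1b gave -19.40, -15.13, -13.15 and -9.75. Of all genes tested, 41.1% passed this test. Most named genes outside the members were picked because they were called with LPS in WT, and the members with earlier results in view. The difference uses the same WT libraries, so the count of 22 cannot be read against that share. These differences rest on the labels as given: if medium and LPS were exchanged among the KO labels, which cannot be told from the labels, the effects in those libraries would turn sign, and St6gal1, with -4.88 in WT and 5.21 in the libraries labelled KO, would be lower in both. Scaled by library size alone, the calls of St3gal6 (-1.19), St3gal4 (-1.24), Ptpn6 (-0.46), Cd33 (-0.71) and Siglece (-2.04) ended.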

How the results depend on the processing

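Counts of calls by edgeR are given as members, pathway genes and all genes; as reported they were 2, 11 and 2526 with LPS in WT, 2, 21 and 4186 with LPS in the libraries labelled KO, 1, 13 and 3324 between labels in LPS, 2, 13 and 3620 between labels in medium, and 4, 23 and 5657 for the difference of LPS effects. Scaling by library size alone gave 20 pathway genes and 4233 genes in WT, 6494 genes in the libraries labelled KO, 24 pathway genes between labels in LPS, and 22 pathway genes and 6644 genes in medium. DESeq2 called 17 pathway genes in WT and 2 members between labels in LPS. With only the groups compared, 1590 genes were called in WT and 2185 between labels in LPS. Keeping genes with any count gave 2 members between labels in LPS and 4 in medium. Without both libraries that stood apart, 2 members, 20 pathway genes and 5062 genes were called between labels in LPS and 5663 genes in medium; with the Xist class, 2 members in LPS.

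With each library left out in turn, members, pathway genes and all genes called ran from 2 to 3, 5 to 14 and 1384 to 3042 in WT (5, 6 and 7 pathway genes without WT LPS 3, WT medium 3 and WT medium 1, each of which also left at most 1545 genes in all), 1 to 3, 9 to 22 and 2543 to 5095 in the libraries labelled KO (1 member and at most 12 pathway genes without any 1 of the 3 labelled KO medium or of those labelled KO LPS 2 and 3; at most 2713 genes in all without labelled KO medium 1 or labelled KO LPS 2 or 3), 1 to 2, 8 to 16 and 1810 to 4093 between labels in LPS (8 pathway genes without labelled KO LPS 2 or 3, at most 1982 genes in all without either or WT LPS 3, and 2 members without WT medium 2, WT LPS 1 or 2 or labelled KO LPS 1), 1 to 4, 7 to 16 and 2196 to 4735 in medium (7 pathway genes without WT medium 3, at most 2269 genes in all without WT medium 1 or 3 or labelled KO medium 1, 1 member without these or labelled KO medium 3, and 4 without WT LPS 2), and 2 to 4, 17 to 28 and 4709 to 6296 for the difference (2 members without WT LPS 3). The replicate numbers did not pair the samples, since same-numbered deviations correlated between -0.538 and 0.567; a replicate block gave 13 pathway genes in the libraries labelled KO, and a block on the code number 5 pathway genes and 1571 genes in WT.

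Among genes other than the members, values that changed sign were those of Mag, by library size alone (0.488 in the libraries labelled KO, 0.0195 between labels in LPS, -0.111 in medium and 0.130 for the difference) and with a library left out in the libraries labelled KO (-0.610 to 0.105), and of Ctsa, by library size alone in medium (-0.499) and with a library left out in WT (-0.606 to 0.0160) and in the libraries labelled KO (-0.183 to 0.216). The causes were not tested. The order of the members by FPKM was the same by mean and median in 4 of 4 groups and by CPM in 0, since CPM is not per length. Over all settings, 2752 values of single genes kept their direction and side of the threshold (for members, stayed within 1 SD between replicates), 107 lost the call, 28 gained it, 44 values of members moved by more than 1 SD and 9 values of Mag and Ctsa changed sign. Of the members, 36 values took the other sign, all in contrasts that were not called (of Siglec1, Siglece, Siglecf, Siglecg and Cd22). With 3 libraries a group, low genes such as Siglecg rest on 5 to 25 reads in most libraries, which limits what can be told from them.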
